A study of Homo sapiens with 21 samples.

Results

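Broad H3K4me3 promoters are described here: stretches around gene starts over which trimethylation of lysine 4 of histone H3 (H3K4me3), the histone mark of active promoters, reached unusually far. From 19279 merged regions, 13883 were called in all 9 H3K4me3 libraries, and 10135 of those were promoter regions, overlapping by a margin of 1 kb the outer start of a gene that is protein-coding or a lncRNA, on chromosomes 1 to 22 or X. Of these 10135 promoter regions, the 760 whose covered length averaged at least 3500 bp in complete medium were taken as broad, and the other 9375 served for comparison. A region's width is the number of bases inside it that called peaks covered in a library. The rule thus used the widths in complete medium, so every width in or against that medium is given as a description without a test. Distance to a gene start was taken from the merged region, which spans the called peaks of all 9 libraries. A further 136 regions called in all 9 libraries were as broad but had no such gene start within 1 kb, and were left out.

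The cells were RS4;11, an established line of B-cell precursor acute lymphoblastic leukaemia in which a translocation joins KMT2A, a gene for an H3K4 methyltransferase, to AFF1. They were kept for 24 h in complete medium (+Asn), in medium without asparagine (-Asn), or in medium without asparagine supplemented with ferric nitrate at 10 µM and with hinokitiol, which shuttles iron through membranes, at 0.75 µM (-Asn+Fe). Iron and hinokitiol were always given together, so their parts cannot be told apart, and no group received them in complete medium. Each medium had 3 H3K4me3 ChIP-seq libraries and 3 libraries of whole-cell RNA, and the series also holds 3 input libraries. All come from 1 cell line, and no label says that the libraries of a medium came from separate cultures. A p-value here therefore reflects only how far these libraries spread, which may be technical.

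H3K4me3 is written by the KMT2 (MLL) and SETD1 methyltransferase complexes and is usually a narrow peak at the start of a transcribed gene. In each cell type a minority of genes carry much broader domains that run into the gene body, and these are known to mark genes of cell identity and genes with high, steady transcription. In leukaemias with a KMT2A fusion, fusion-bound genes such as the HOXA cluster and MEIS1 are known for such broad domains. Removal of H3K4 methylation is the work of LSD1, which uses a flavin, and of JmjC demethylases, which need iron and 2-oxoglutarate.

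The promoters of 6 genes at these regions are shown as RefSeq gives them (GRCh38.p14, on the gene's strand, 5′ to 3′, 250 bases before to 50 after the RefSeq start). They are those of the 3 broadest regions and of the 3 genes with the largest RNA rise in -Asn among those the naming rule picked. Capitals mark CpG dinucleotides, which are dense in most promoters that carry H3K4me3. HOXA9, PAX5 and MEF2C-AS1 name the 3 broadest regions, and NR4A3, ZBTB7B and FOSL2 are transcription factor genes whose RNA was several times higher without asparagine. The windows lie at chr7:27165488-27165787 (minus strand), chr5:88883080-88883379 (plus), chr9:37034219-37034518 (minus), chr9:99821635-99821934 (plus), chr1:155002399-155002698 (plus) and chr2:28392608-28392907 (plus).
HOXA9: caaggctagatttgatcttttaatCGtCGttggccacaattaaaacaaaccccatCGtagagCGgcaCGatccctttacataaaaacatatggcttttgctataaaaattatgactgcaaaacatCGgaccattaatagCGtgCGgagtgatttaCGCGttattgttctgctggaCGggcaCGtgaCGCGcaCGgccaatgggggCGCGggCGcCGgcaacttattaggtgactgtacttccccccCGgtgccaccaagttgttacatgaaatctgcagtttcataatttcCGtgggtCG
MEF2C-AS1: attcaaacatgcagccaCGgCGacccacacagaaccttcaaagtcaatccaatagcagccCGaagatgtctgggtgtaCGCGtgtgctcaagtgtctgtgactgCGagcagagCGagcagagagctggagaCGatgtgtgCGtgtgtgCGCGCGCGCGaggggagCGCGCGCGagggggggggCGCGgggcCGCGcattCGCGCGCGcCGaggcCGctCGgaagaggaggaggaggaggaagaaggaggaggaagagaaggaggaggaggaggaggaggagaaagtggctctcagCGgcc
PAX5: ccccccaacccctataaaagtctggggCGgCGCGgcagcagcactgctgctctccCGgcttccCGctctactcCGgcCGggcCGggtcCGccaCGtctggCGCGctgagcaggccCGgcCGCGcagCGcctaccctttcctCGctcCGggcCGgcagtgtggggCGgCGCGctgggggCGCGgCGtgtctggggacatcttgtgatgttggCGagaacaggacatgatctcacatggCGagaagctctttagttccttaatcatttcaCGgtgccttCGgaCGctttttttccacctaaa
NR4A3: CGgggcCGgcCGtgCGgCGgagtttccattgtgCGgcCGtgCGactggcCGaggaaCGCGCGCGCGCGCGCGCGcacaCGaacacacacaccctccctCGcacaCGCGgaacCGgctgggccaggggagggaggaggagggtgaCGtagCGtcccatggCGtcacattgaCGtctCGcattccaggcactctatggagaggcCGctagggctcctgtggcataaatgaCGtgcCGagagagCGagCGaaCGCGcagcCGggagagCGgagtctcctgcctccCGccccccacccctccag
ZBTB7B: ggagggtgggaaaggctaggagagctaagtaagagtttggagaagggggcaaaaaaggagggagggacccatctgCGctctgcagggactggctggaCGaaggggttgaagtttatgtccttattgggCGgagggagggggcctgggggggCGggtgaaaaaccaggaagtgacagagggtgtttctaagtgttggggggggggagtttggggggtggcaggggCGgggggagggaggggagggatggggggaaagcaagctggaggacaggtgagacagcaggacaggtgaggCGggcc
FOSL2: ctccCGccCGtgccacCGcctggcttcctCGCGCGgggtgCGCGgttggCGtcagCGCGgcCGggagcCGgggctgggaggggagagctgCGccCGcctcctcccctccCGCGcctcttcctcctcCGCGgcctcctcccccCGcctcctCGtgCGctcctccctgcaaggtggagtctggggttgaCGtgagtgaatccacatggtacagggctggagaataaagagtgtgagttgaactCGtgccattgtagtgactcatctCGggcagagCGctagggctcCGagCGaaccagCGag
These windows held 22 CpG in HOXA9, 30 in MEF2C-AS1, 30 in PAX5, 38 in NR4A3, 6 in ZBTB7B and 29 in FOSL2. The ZBTB7B window, at 6 CpG, was the sparsest of the 6 although its region was over 5000 bp wide in +Asn on average.

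A RefSeq window was found for 598 of the 760 broad regions, counting the gene that names each, and 563 of those windows overlapped their region. The 597 distinct windows had a median of 29 CpG (quartiles 20 and 37) and 67.0% G+C. The 6925 windows at the other promoter regions had a median of 27 CpG (quartiles 20 and 35), and all 27305 RefSeq windows had a median of 12. CpG content close to the start thus differed little between broad and other H3K4me3 promoters. The GC box GGGCGG stood on either strand in 73.2% of broad windows, 73.0% of other H3K4me3 windows and 43.4% of all RefSeq windows. The ETS-type motif CCGGAAG, searched on both strands, was in 8.54% of broad windows, 21.8% of other H3K4me3 windows and 10.5% of all windows. TATAAA on either strand, anywhere in the window, was in 6.70%, 4.82% and 12.3% of the same sets. All motifs were searched on both strands. The E-box CACGTG was in 10.2%, 10.8% and 7.19%. The cyclic AMP response element TGACGTCA was in 13 of 597, 241 of 6925 and 523 of 27305 windows, and the ATF4 element core TGATGNAA in 2.35%, 1.40% and 3.83%. None of these motifs contains another. These are matches of letters, not binding sites.

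In +Asn the 760 regions had a median width of 4205 bp (quartiles 3794 and 5096), against 1741 bp for the other promoter regions. Only 63 reached 7000 bp. Around the threshold, the 3 members just inside were SBDS (3501 bp), CDT1 (3502 bp) and C16orf72 (3503 bp), and the 3 regions just outside were IGFBP7 (3495 bp), USP22 (3497 bp) and KLF6 (3497 bp), so the threshold falls within a continuous range. The marked bases lay mostly inside the gene: a median of 3112 bp downstream and 1200 bp upstream of the start in broad regions, with more downstream in 644 of 760 (84.7%). The other promoter regions had 1147 bp downstream and 522 bp upstream, with more downstream in 82.5%. The median spread among the 3 +Asn libraries was an SD of 124 bp per broad region.

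The 760 regions held the starts of 1222 genes, 872 protein-coding and 350 lncRNA. A single gene start was found in 375 regions and 3 or more in 61, the most being 8 at the HOXA cluster. Each region is named below by its protein-coding gene with the highest mean RNA over the 9 libraries, or by a lncRNA gene in the 58 regions without one. KDM6B names a pair of neighbouring regions, so there are 759 naming genes. Broad regions made up 13.5% of the promoter regions on chromosome 4, 12.5% on chromosome 13 and 11.6% on chromosome 6, and 4.08% on chromosome 19 and 4.24% on chromosome 20.

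The broadest region covered the HOXA cluster at chr7:27147590-27174990 (hg38) and is named by HOXA9, a homeobox transcription factor gene and a classical target of KMT2A fusions. Its width was 27043, 27008 and 26919 bp in +Asn, 26920, 27232 and 27315 bp in -Asn and 27111, 27063 and 27271 bp in -Asn+Fe. The +Asn and -Asn libraries overlapped, and every -Asn+Fe library was wider than every +Asn library. At chr5:88870399-88890991 the region of the lncRNA MEF2C-AS1 measured 18426 ± 592 bp (SD, n = 3) in +Asn and 18118 ± 1069 bp in -Asn. PAX5, the transcription factor that maintains B-cell identity, had a region at chr9:37021693-37040616 of 18035, 18350 and 17843 bp in +Asn, 17744, 18786 and 17844 bp in -Asn and 18138, 18033 and 18553 bp in -Asn+Fe. MEIS1, a homeobox partner of HOX proteins, had one of 16888 ± 426 bp in +Asn at chr2:66432123-66451045. CDK6, a G1 cyclin-dependent kinase gene and fusion target, followed with 15993 ± 535 bp at chr7:92825942-92843429.

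CDKN1B, which encodes the CDK inhibitor p27, measured 15387 ± 229.6 bp in +Asn. RNF220, a ubiquitin ligase gene, measured 14291 ± 355 bp and BCL11A, a zinc finger transcription factor gene of lymphoid progenitors, 11979 ± 206 bp. The lncRNA AC068135.2 measured 11851 ± 155 bp, EBF1, the early B-cell factor, 11679.7 ± 224 bp, JMJD1C, a JmjC-domain gene, 11465 ± 127 bp, and ARPP21, a cAMP-regulated phosphoprotein gene, 11068 ± 153 bp (SD, n = 3 in each case). Among the 12 broadest, EBF1 was the one whose -Asn libraries all lay below +Asn: 11795, 11823 and 11421 bp in +Asn, 10649, 10887 and 11171 bp in -Asn and 10883, 10321 and 10338 bp in -Asn+Fe. The other 11 overlapped between +Asn and -Asn.

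**Figure D1:**
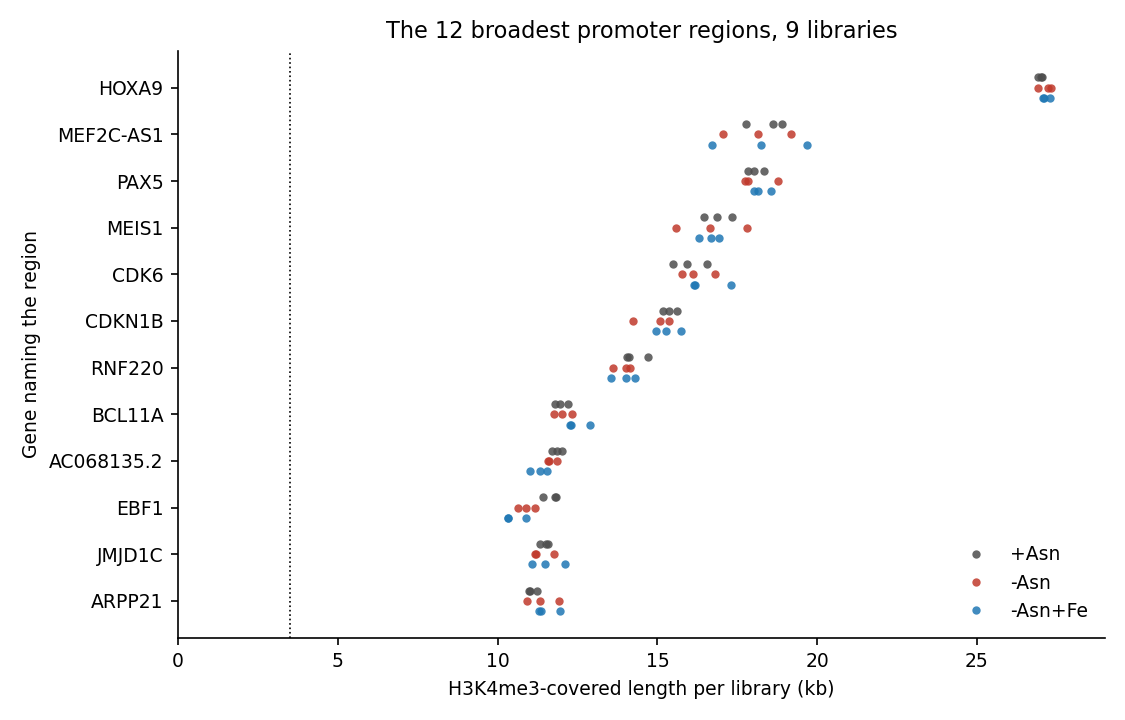
H3K4me3-covered length in kb (x axis) for the 12 broadest promoter regions (y axis, naming gene), with 1 point per library (3 per medium, colours) and a dotted line at the 3.5 kb threshold. Points of the 3 media lie over each other in most rows, and the EBF1 region lies lower in -Asn and -Asn+Fe than in +Asn.

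Genes were also grouped by lists and counted at broad promoters. Of all 13859 genes at promoter regions called in all 9 libraries, 1222 (8.82%) lay at broad ones. Of KMT2A fusion target genes it was 16 of 20, among them the HOXA genes, MEIS1, CDK6, JMJD1C, MBNL1 and PROM1. Of B-lineage transcription factor genes it was 18 of 25, including PAX5, EBF1, LEF1, IKZF1, TCF3 and MYB. Replication-dependent histone genes followed with 31 of 55, snoRNA host and regulatory lncRNAs with 12 of 27, surface and receptor genes of precursor B cells with 9 of 22 and AP-1, immediate early and feedback genes with 15 of 37. Genes of a cluster share regions: the 31 histone genes lay at 14 regions and the 16 fusion target genes, with those of the HOXA cluster, at 13.

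At the other end, the count was 0 of 37 for cytosolic ribosomal proteins, 0 of 14 for iron uptake, storage and NRF2 targets, 1 of 29 for G2 and mitosis genes (KIF11, a spindle motor) and 6 of 38 for S phase and E2F targets. Between these lay H3K4 methyltransferase complexes with 7 of 21, JmjC and LSD1 demethylases with 4 of 18, KMT2A fusion partners and elongation factors with 4 of 19, and ATF4 and amino acid response genes with 5 of 30. None of the T cell, myeloid or erythroid marker genes had a broad promoter, and few had any promoter region (5 of 14, 1 of 14 and 1 of 12).

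**Figure D2:**
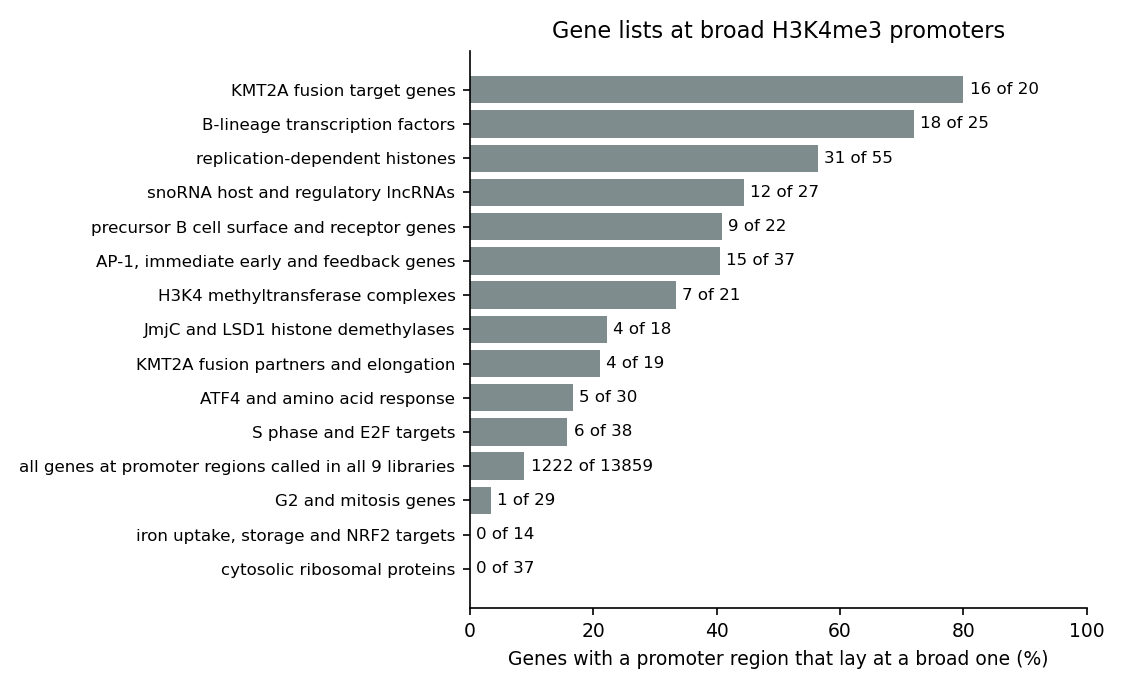
Share of each list's genes at promoter regions called in all 9 libraries that lay at a broad one (bars, %), with the counts at the bar ends, for the lists described that have at least 10 such genes and for all genes. KMT2A fusion target genes (16 of 20) and B-lineage transcription factors (18 of 25) stand at the top, and ribosomal protein genes (0 of 37) at the bottom.

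Levels of different genes were compared as RPKM, the CPM value (defined below) per kilobase of gene length in the count table. In +Asn the naming genes of broad promoters had a median of 21.1 RPKM (quartiles 8.55 and 46.6). Naming genes of promoter regions of 2500 to 3500 bp had 14.4, of 1500 to 2500 bp 8.19 and of under 1500 bp 1.44. At 7000 bp and above the median was 30.9 RPKM over 63 genes. Under 1 CPM were 50 of 759 naming genes at broad promoters (6.59%), and 31.0% in the narrowest class. Over all 1222 genes at broad promoters the median was 9.30 RPKM, against 3.27 over 12637 genes at other promoter regions. The naming gene is by rule the strongest of its region and broad regions hold more genes, and both favour higher naming values there.

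**Figure D3:**
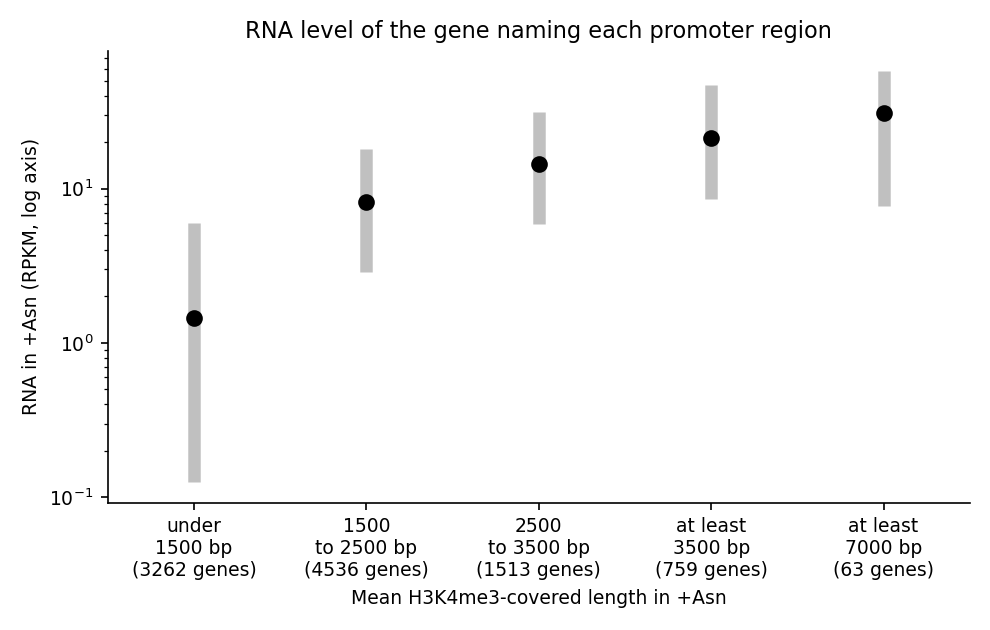
RNA level in +Asn (y axis, RPKM, log axis) of the genes naming promoter regions, by mean covered length in +Asn (x axis). Points are medians and bars run from the lower to the upper quartile over genes, from a median of 1.44 in the narrowest class to 21.1 at 3500 bp or more and 30.9 at 7000 bp or more, a subset of that class.

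RNA libraries summed to 29362707 to 42478518 counts. CPM are counts set against each library's effective size, which is its total corrected for composition by TMM. RNA values of each medium are given in the order of its 3 libraries, and widths likewise. The 10 precursor B markers were all at 1 CPM or more in +Asn and summed to 2750 to 2839 CPM in +Asn, 2471 to 2568 in -Asn and 2207 to 2287 in -Asn+Fe. Markers of T cells summed to 52.3 to 68.1 CPM over the 9 libraries, of myeloid cells to 26.5 to 40.4 and of erythroid cells and megakaryocytes to 7.73 to 11.9, with HBA2 and PF4 at 0 throughout. The T sum was higher without asparagine and the myeloid sum highest in -Asn+Fe, and their part in any result was not tested. Among the H3K4me3 libraries, -Asn replicate 2 had the most called regions (17448, against 14741 to 17206 in the others) and the largest median width over the 760 regions (4481 bp, against 4163 to 4397 bp). -Asn replicate 1 had the smallest (4163 bp). In RNA, -Asn replicate 1 lay apart from the other 2 for several long genes, as the values of CDK6 and AFF1 show. The count table also lists copies of 39 of the 1222 genes on alternate contigs, E2F2, MLLT6, COX8C and PTPRC among them, so their counts may be split.

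Which genes at broad promoters changed their RNA without asparagine was asked first. KDM6B, FOSL2, ZBTB7B, HIST1H2AC and NR4A3 rose 7.16- to 9.14-fold, while CCNE2, MCM4, CCSAP, HSPH1, SCD and IGLL1 fell. With edgeR's quasi-likelihood test, 1090 of the 1222 genes passed the low-count filter and 304 were higher and 470 lower in -Asn than in +Asn at an adjusted p under 0.05. Over all 17939 genes tested, 31.0% were higher and 30.2% lower (61.2% in all, against 71.0% of the 1090). At least 2-fold, 116 were higher and 113 lower, beside 14.6% and 8.26% of all genes. The share higher at broad promoters was 27.9% and the share lower 43.1%, and at other promoter regions 31.9% and 37.1%. The median log2 fold change was -0.14 at broad promoters and 0.042 over all genes. This balance rests on the scaling: with library totals alone the counts were 410 higher and 363 lower and the median 0.067, while the median of all genes moved to 0.25.

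Protein-coding and lncRNA genes were counted apart, without a test of their difference. Of 826 protein-coding genes tested at broad promoters, 190 rose and 437 fell (23.0% and 52.9%), beside 29.4% and 41.6% at other promoter regions and 30.7% and 38.5% of all protein-coding genes tested. Of 264 lncRNA genes, 114 rose and 33 fell (43.2% and 12.5%), beside 47.9% and 7.02% at other promoter regions and 39.4% and 9.72% of all lncRNA genes tested. How the counting treated strand is not given in the sources used here. Reads of a lncRNA cannot be told apart from those of an overlapping or antisense gene.

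KDM6B encodes a JmjC demethylase of H3K27. Its RNA was 34.2, 35.6 and 35.8 CPM in +Asn, 248, 256 and 252 CPM in -Asn and 303, 306 and 318 CPM in -Asn+Fe, so that the +Asn libraries lay far below the other 6. The log2 fold change from +Asn to -Asn was 2.84 ± 0.067 (SE, n = 3 per group), adjusted p = 5e-15 by edgeR. FOSL2, an AP-1 transcription factor gene, had 23.0, 22.1 and 23.4 CPM in +Asn, 152, 181 and 186 CPM in -Asn and 168, 175 and 146 CPM in -Asn+Fe, with a log2 fold change of 2.92 ± 0.093 (SE, n = 3 per group), adjusted p = 1.54e-13. ZBTB7B, a zinc finger transcription factor gene, measured 8.40, 6.54 and 6.30 CPM in +Asn and was at 51.4 CPM or more in each of the 6 libraries without asparagine, with a log2 fold change of 3.03 ± 0.11 (SE, n = 3 per group), adjusted p = 7.44e-13. In FOSL2 and ZBTB7B, -Asn and -Asn+Fe overlapped and +Asn lay below.

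NR4A3, an orphan nuclear receptor gene, was low in +Asn (0.883, 1.38 and 0.812 CPM in +Asn) and reached 7.31, 8.45 and 12.3 CPM in -Asn and 8.15, 11.1 and 5.94 CPM in -Asn+Fe, a log2 fold change of 3.19 ± 0.28 (SE, n = 3 per group), adjusted p = 1.14e-07 in -Asn. The histone gene HIST1H2AC (H2AC6) had 3.13, 2.68 and 3.28 CPM in +Asn, 23.6, 21.2 and 21.2 CPM in -Asn and 32.1, 31.3 and 31.1 CPM in -Asn+Fe, a log2 fold change of 2.86 ± 0.10 (SE, n = 3 per group), adjusted p = 7.44e-13. Its 3 media did not overlap. Histone genes have near-identical copies, and counts may be shared among them.

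Among the genes that fell, CCNE2, the gene of cyclin E2 that drives entry into S phase, had 183, 189 and 179.7 CPM in +Asn, 16.1, 20.1 and 20.6 CPM in -Asn and 8.02, 7.27 and 7.90 CPM in -Asn+Fe and a log2 fold change of -3.28 ± 0.089 (SE, n = 3 per group), adjusted p = 2.45e-14 in -Asn. MCM4, a subunit of the replicative helicase whose start shares a region with PRKDC, averaged 899 ± 16.1 CPM (SD, n = 3) in +Asn and 128 ± 2.50 CPM in -Asn, a log2 fold change of -2.81 ± 0.068 (SE, n = 3 per group), adjusted p = 5.68e-15. In both genes the 3 media did not overlap and -Asn+Fe was lowest. HSPH1, a large heat shock protein gene, had 529, 568 and 581 CPM in +Asn, 125, 129 and 139 CPM in -Asn and 295, 281 and 305 CPM in -Asn+Fe and a log2 fold change of -2.09 ± 0.072 (SE, n = 3 per group), adjusted p = 4.45e-13. Here -Asn was lowest and -Asn+Fe lay between.

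SCD, the desaturase that makes monounsaturated fatty acids, fell from 454 ± 8.69 CPM to 106 ± 8.64 CPM (log2 fold change -2.09, adjusted p = 7.55e-13). CCSAP, a spindle and cilium protein gene, fell from 57.8 ± 2.71 CPM to 11.5 ± 1.35 CPM (log2 fold change -2.33, adjusted p = 4.62e-12). IGLL1, a component of the surrogate light chain of the pre-B-cell receptor, fell from 281 ± 27.0 CPM to 66.8 ± 8.16 CPM (log2 fold change -2.07, adjusted p = 3.67e-11). All were called by edgeR with 3 libraries per medium that did not overlap.

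The genes above were picked for their large changes, so they are no yardstick for the 12 broadest regions, whose RNA values follow. Over all 1090 genes tested at broad promoters, the quartiles of the log2 fold change in -Asn were -0.61 and 0.40. HOXA9 had 88.0, 100.1 and 93.1 CPM in +Asn, 147, 121 and 129 CPM in -Asn and 137, 133 and 131 CPM in -Asn+Fe, with -Asn above +Asn by a log2 fold change of 0.50 ± 0.078 (SE, n = 3 per group), adjusted p = 3.32e-05. PAX5 stood at 966, 954 and 979.9 CPM in +Asn, 1181, 1375 and 1379 CPM in -Asn and 1151, 1171 and 1150.3 CPM in -Asn+Fe, 0.44 ± 0.075 (SE, n = 3 per group), adjusted p = 8.08e-05 on the log2 scale from +Asn to -Asn. EBF1, whose region was narrower in -Asn, had a log2 fold change of -0.52 ± 0.071 (SE, n = 3 per group), adjusted p = 6.88e-06, from 462 ± 19.3 CPM to 321 ± 20.8 CPM. JMJD1C rose by 0.74 (adjusted p = 1.06e-05), MEF2C-AS1 by 0.82 (adjusted p = 0.000148), BCL11A by 0.28 (adjusted p = 0.00335), CDKN1B by 0.25 (adjusted p = 0.00503) and ARPP21 by 0.21 (adjusted p = 0.0129), all on the log2 scale. AC068135.2, at 2.14 ± 0.397 CPM in +Asn, had a log2 fold change of -1.25 (adjusted p = 0.000616). MEIS1 (0.14, adjusted p = 0.0795) and RNF220 (0.13, adjusted p = 0.111) did not pass the test, but both did with library totals alone and with the stricter filter, and MEIS1 also without -Asn replicate 1. CDK6 had 2825, 3049 and 2943 CPM in +Asn, 1493, 2399 and 2478 CPM in -Asn and 2991, 2589 and 2801 CPM in -Asn+Fe, with a log2 fold change of -0.47 ± 0.14 (SE, n = 3 per group), adjusted p = 0.0102 in -Asn, and the call was lost with library totals alone and with no or a stricter low-count filter. The low value is that of replicate 1. ARPP21 lost its call without +Asn replicate 1 or 3, and CDKN1B without +Asn replicate 3.

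Values of single genes in the lists are log2 fold changes by edgeR, 3 libraries per medium. Whole lists, given beside, count every tested gene of a list, also those at broad promoters. Of 16 KMT2A fusion target genes tested at broad promoters, 4 rose (JMJD1C, SENP6, HOXA9 and HOXA3) and 5 fell (MYB, BCL2, CDK6, IGF2BP2 and MBNL1), and 7 did not pass, shares near the 31.0% higher and 30.2% lower of all genes. The whole list of fusion targets had 7 of 26 higher and 6 lower. MBNL1, a splicing regulator gene, had a log2 fold change of -0.33 (adjusted p = 0.0202), which was lost under 4 alternatives, library totals alone and leaving out +Asn replicate 2 among them. PROM1, a stem cell surface glycoprotein gene, had one of 0.11 (adjusted p = 0.275). B-lineage transcription factors had 6 of 18 higher and 9 lower (median log2 -0.19), beside 9 of 32 higher and 17 lower in the whole list. XBP1, a factor of the unfolded protein response, rose by 1.01 (adjusted p = 4.92e-09), while TCF3 fell by 1.13 (adjusted p = 4.34e-10), LEF1 by 0.63 (adjusted p = 1.04e-06) and IKZF1 by 0.84 (adjusted p = 9.22e-08) on the log2 scale. ELF1 had 0.087 (adjusted p = 0.346). Of 9 precursor B surface and receptor genes, PTPRC (CD45) rose, by 0.47 (adjusted p = 2.93e-05), and 6 fell, SYK by 0.24 (adjusted p = 0.00393) among them, with CD74 at 0.039 (adjusted p = 0.719) and FLT3 at 0.16 (adjusted p = 0.0538). In the whole list 7 of 27 rose and 17 fell. The SYK call was lost with library totals alone and with the stricter filter. PROM1, ELF1 and FLT3 were called as higher under 3 alternatives, which were these and leaving out -Asn replicate 1, and CD74 with library totals alone.

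AP-1, immediate early and feedback genes had 11 of 15 higher and 3 lower, with BTG1, an antiproliferative gene, at 1.81 (adjusted p = 2.53e-12) and ZFP36L1, which encodes a protein that destabilises mRNA, at 1.32 (adjusted p = 3.12e-11). In the whole list 25 of 35 were higher and 5 lower. The ATF4 and amino acid response list had 4 of 5 higher, beside 33 of 35 in the whole list. ATF4 itself, the transcription factor translated under amino acid shortage, rose by 1.02 (adjusted p = 4.71e-08), and SLC3A2, the heavy chain of an amino acid exchanger, by 2.23 (adjusted p = 4.5e-12). SLC7A5, its light chain, rose by 0.88 (adjusted p = 1e-08), and SLC1A5, a glutamine transporter gene, was also called, at 0.45 (adjusted p = 9.11e-05). SLC38A2, a neutral amino acid transporter gene, had -0.088 (adjusted p = 0.466). Among single genes outside these lists, PMAIP1 (NOXA), a BH3-only gene, had 1.41 (adjusted p = 1.96e-11), PPM1D, a phosphatase gene, -0.33 (adjusted p = 0.000899), MDM2, a ubiquitin ligase gene, -0.27 (adjusted p = 0.019) and SESN1, a stress-induced gene, -0.24 (adjusted p = 0.0194). The PPM1D call was lost with library totals alone, and the MDM2 call with those, with the stricter filter and with only the 6 libraries compared. The SESN1 call was lost under 6 alternatives, the same 3 and leaving out +Asn replicate 1, +Asn replicate 3 or -Asn replicate 2.

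Replication-dependent histone genes had 8 higher and 1 lower of 26 tested, and 5 at broad promoters were not tested. In the whole list 20 of 50 were higher and 1 lower. HIST1H2BD rose by 2.11 (adjusted p = 1.05e-09), HIST2H2BE by 1.80 (adjusted p = 1.09e-09) and HIST1H2BK by 1.71 (adjusted p = 2.85e-10), and HIST1H1B was the one that fell, by 0.97 (adjusted p = 0.0309). The snoRNA host and regulatory lncRNAs had 7 higher and 3 lower of 11 tested, with MALAT1 at 1.35 (adjusted p = 3.57e-07), GAS5 at 1.28 (adjusted p = 2.66e-09) and SNHG1 at 0.92 (adjusted p = 1.3e-08). In the whole list 20 of 28 were higher and 5 lower. GAS5 shares its region with ZBTB37 and SNHG1 shares one with SLC3A2. All 5 tested S phase genes fell, and KIF11 fell by 0.83 (adjusted p = 6.15e-08). Of the H3K4 methyltransferase list, 5 of 7 fell: HCFC1, a shared subunit gene, by 1.08 (adjusted p = 2.58e-08), KMT2A by 0.64 (adjusted p = 6.33e-05), and ING1, ING2 and SETD1B, while KMT2D had -0.10 (adjusted p = 0.549). In the whole list of these complexes 12 of 21 fell and 3 rose. KDM6A, an H3K27 demethylase that belongs to such complexes, rose by 0.48 (adjusted p = 6.78e-05), and KDM2A, a JmjC gene, had -0.025 (adjusted p = 0.756). AFF1, the fusion partner, had 597, 662 and 634 CPM in +Asn, 275, 415 and 404 CPM in -Asn and 441, 429.8 and 428 CPM in -Asn+Fe and a log2 fold change of -0.79 ± 0.12 (SE, n = 3 per group), adjusted p = 2.99e-05. Reads of KMT2A and AFF1 may come from the fusion or from the unrearranged genes. MLLT10 had -0.14 (adjusted p = 0.105), and MLLT6 was not tested. MLLT10 was called as lower without +Asn replicate 1, and KDM2A was called as higher with library totals alone.

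The widths of broad promoters shifted in both directions in -Asn. Every -Asn library was wider than every +Asn library in 183 of 760 regions and narrower in 89 (24.1% and 11.7%), while of all 13883 regions 32.7% were wider and 4.37% narrower. The median log2 difference was 0.022 at broad promoters, 0.076 at other promoter regions and 0.086 over all regions. These counts are descriptions, since members were chosen for being wide in +Asn. They also depend on scaling and on which libraries are kept. Without -Asn replicate 1 the wider regions were 301, and without -Asn replicate 2 the narrower ones were 167. With a library left out the media separate more easily, so such counts rise in part by construction. After centring each library on its median 56 were wider and 310 narrower. Members chosen on 1 +Asn library and set against the other 2 gave median differences of 0.017 to 0.032.

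The region that widened most lay at chr17:7833686-7840076, just before the outer start of KDM6B. Its width was 3925, 4015 and 3900 bp in +Asn, 5708, 6258 and 6018 bp in -Asn and 6030, 5843 and 5545 bp in -Asn+Fe. The +Asn libraries lay below all others, and peaks that ended before the start in +Asn came close to it or reached it in -Asn. In +Asn these peaks ended at -1602, -1597 and -1549 bp from the start, more than 1 kb away. The link of this region to KDM6B therefore came only through libraries without asparagine. The second KDM6B region, downstream of the start, differed by 0.095 on the log2 scale. It came within 1 kb of that start only in libraries without asparagine (864 bp in -Asn replicate 2 and 994 bp in -Asn+Fe replicate 2). BBC3, which encodes the BH3-only cell death protein PUMA, came next at chr19:47226189-47232770 with 4369, 4409 and 4297 bp in +Asn, 6340, 6535 and 6406 bp in -Asn and 6237, 6483 and 6404 bp in -Asn+Fe. The gap between the 2 peaks seen in +Asn was covered in every library without asparagine. The +Asn peaks began 1111 to 1140 bp downstream of the start, so the link to BBC3 also came through libraries without asparagine. BBC3 RNA stood at 5.91, 5.01 and 6.05 CPM in +Asn and 30.8, 29.4 and 24.6 CPM in -Asn, a log2 fold change of 2.32 ± 0.12 (SE, n = 3 per group), adjusted p = 5.33e-11 (edgeR).

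NEAT1, the lncRNA that builds paraspeckles, had a region at chr11:65416489-65427615 of 6988, 7069 and 6712 bp in +Asn, 8940, 10582 and 10766 bp in -Asn and 10413, 10460 and 10579 bp in -Asn+Fe. All -Asn and -Asn+Fe libraries exceeded +Asn, and NEAT1 RNA rose by a log2 fold change of 1.53 ± 0.084 (SE, n = 3 per group), adjusted p = 1.25e-10. FNDC3A, which encodes a fibronectin type III domain protein, had 3722, 3815 and 3602 bp in +Asn and 4455, 5079 and 5145 bp in -Asn at chr13:48974662-48979966. Its RNA overlapped between these media (117, 122 and 123 CPM in +Asn and 119.5, 178 and 190.2 CPM in -Asn), with a log2 fold change of 0.43, adjusted p = 0.00771, and the call was lost without -Asn replicate 3. The region named by COX8C, a cytochrome c oxidase subunit gene, had 3551, 4143 and 3369 bp in +Asn and 4791, 4837 and 4792 bp in -Asn at chr14:93347026-93352041. COX8C RNA was counted at 0 in all 9 libraries and could not be tested. Of the genes above, PTPRC (width log2 difference 0.37), ZBTB7B (0.31), NR4A3 (0.29), FOSL2 (0.28), MDM2 (0.29), PMAIP1 (0.28) and XBP1 (0.28) also had wider regions in every -Asn library.

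BID, a pro-apoptotic BH3-only gene, narrowed most, at chr22:17770621-17774774, with 3893, 3757 and 3773 bp in +Asn, 2159, 2552 and 2396 bp in -Asn and 2409, 2498 and 2492 bp in -Asn+Fe. The peaks ended farther upstream in the gene in every library without asparagine. BID RNA fell from 96.8 ± 1.56 CPM to 27.6 ± 2.06 CPM, a log2 fold change of -1.81 ± 0.080 (SE, n = 3 per group), adjusted p = 8.99e-12. MSMO1, a gene of cholesterol synthesis, had 5932, 5745 and 5509 bp in +Asn and 3179, 4362 and 3916 bp in -Asn at chr4:165326528-165332843, and its RNA fell by 0.91 (adjusted p = 1.62e-08). ANKRD27, a gene of endosomal transport, had 4373, 4152 and 4073 bp in +Asn and 2499, 3609 and 3005 bp in -Asn at chr19:32672051-32676444, and its RNA fell by 1.11 (adjusted p = 1.57e-10) on the log2 scale. -Asn lay below +Asn in each of these.

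E2F2, an E2F transcription factor gene of the cell cycle, had 6529, 6398 and 6114 bp in +Asn, 4282, 4899 and 4485 bp in -Asn and 3804, 4223 and 3824 bp in -Asn+Fe at chr1:23525169-23531923. The missing bases lay inside the region, where 1, 1 and 4 peaks were called in +Asn and 3, 4 and 4 in -Asn. The outer span differed by 0.018 on the log2 scale, against -0.48 for covered length. E2F2 was too low in the count table to be tested. IGLL1 had 6134, 5701 and 5711 bp in +Asn, 3966, 4492 and 4505 bp in -Asn and 4589, 4215 and 3878 bp in -Asn+Fe at chr22:23576317-23582450, where -Asn and -Asn+Fe both lay below +Asn. AFF1 (width log2 difference -0.31), SCD (-0.44), MND1 (-0.36), HSPA8 (-0.20), HSPH1 (-0.13) and CCNE2 (-0.12) also had narrower regions in every -Asn library, as did SLC3A2 (-0.33), whose RNA rose. KMT2A's own region was slightly wider in every -Asn library (0.064), by less than the median difference over all 13883 regions (0.086).

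**Figure D4:**
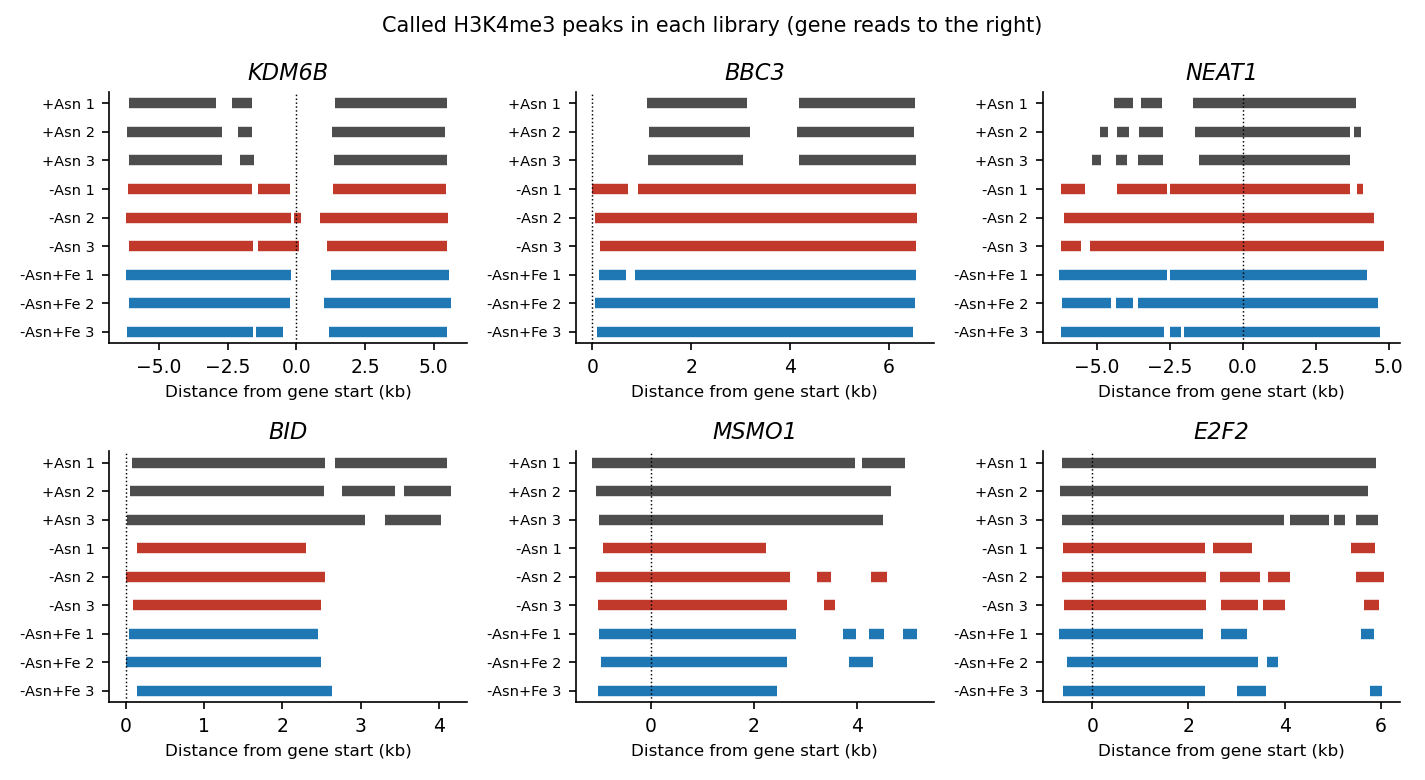
Called H3K4me3 peaks (bars) in each of the 9 libraries (rows, coloured by medium) at the regions of 6 genes, by distance in kb from the outer gene start (dotted line), with the gene reading to the right. Gaps in +Asn at KDM6B, BBC3 and NEAT1 are smaller or absent without asparagine, BID peaks end closer to the start, the peak over the MSMO1 start is shorter with scattered small peaks beyond it in some libraries, and E2F2 is interrupted within the gene, as it also is in +Asn replicate 3.

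By the strand of the naming gene, the downstream edge moved more than the upstream edge in most of these regions. Edges were counted for broad regions only. Of the 183 wider regions, 123 moved more at the downstream edge, by a median of 186 bp against 117 bp upstream. Of the 89 narrower regions, 68 did, by a median of -331 bp downstream and -41.7 bp upstream. Width and RNA differences went along with each other across members: over 736 regions whose naming gene was tested, Pearson's r was 0.45 and Spearman's rho 0.44 from +Asn to -Asn. Across 8525 other promoter regions r was 0.47 and rho 0.43. These are descriptions across regions, which share the same libraries, and are given without a p. Of 171 wider regions with a tested naming gene, 84 had higher and 59 lower RNA. Of 87 narrower ones, 5 had higher and 71 lower RNA, and of 478 regions whose libraries overlapped, 90 had higher and 267 lower RNA.

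**Figure D5:**
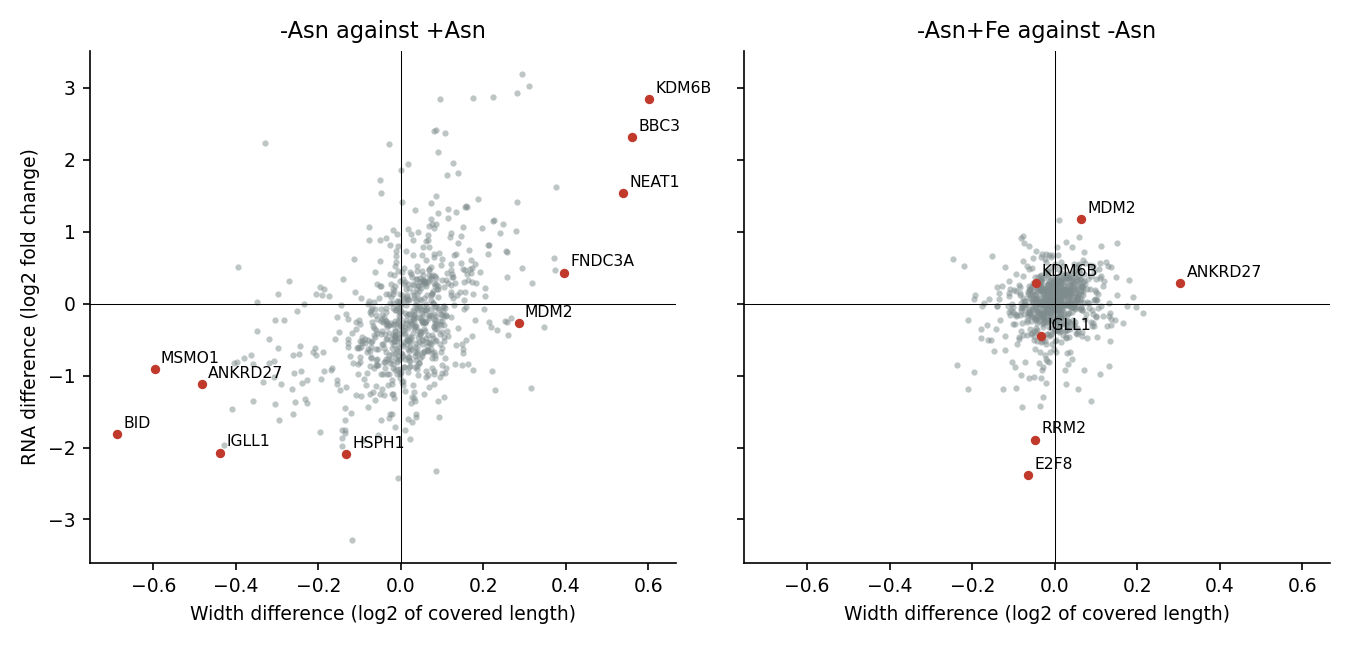
Width difference (x axis, log2 of covered length) against RNA difference (y axis, log2 fold change) for 736 broad regions whose naming gene was tested, in -Asn against +Asn (left) and -Asn+Fe against -Asn (right), with some named genes in red. The left cloud runs from BID at lower left to KDM6B at upper right (r = 0.45), and the right cloud is narrower in width (r = 0.17).

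Whether iron with hinokitiol altered the marks or RNA of starved cells was asked by setting -Asn+Fe against -Asn. The 3500 bp threshold did not use these media, though the call in all 9 libraries and the distance to a gene start did. For widths, limma called 0 of 760 wider and 0 narrower at an adjusted p under 0.05, as it did 0 of all 13883 regions (0%), and the smallest adjusted p among members was 0.33. At an unadjusted p under 0.05 there were 52 of 760, beside 7.51% of all 13883 regions. The median log2 difference was -0.0012, with a median SE of 0.046 per region. Libraries of -Asn+Fe were all wider than -Asn in 29 regions and all narrower in 47, beside 3.58% and 8.47% of all regions. Without -Asn replicate 1 the median was -0.029, and without -Asn replicate 2 it was 0.024.

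None of the largest differences among members passed the test. ANKRD27 went from 2499, 3609 and 3005 bp in -Asn to 4069, 3353 and 3743 bp in -Asn+Fe, a log2 difference of 0.30 ± 0.11 (SE, n = 3 per group), adjusted p = 0.582 by limma. The others with higher values were NRROS, a regulator gene of TGF-beta, at 0.21 ± 0.12 (SE, n = 3 per group), adjusted p = 0.734, and RNF44, a RING finger gene, at 0.20 ± 0.12 (SE, n = 3 per group), adjusted p = 0.759. SESN1 was at -0.25 ± 0.085 (SE, n = 3 per group), adjusted p = 0.558, and DUT, which encodes the dUTPase that keeps uracil out of DNA, at -0.24 ± 0.050 (SE, n = 3 per group), adjusted p = 0.342. The DUT libraries did not overlap (3461, 3872 and 3721 bp in -Asn and 3191, 3033 and 3155 bp in -Asn+Fe). HIST1H2AG was at -0.22 ± 0.068 (SE, n = 3 per group), adjusted p = 0.517. At the regions that differed most between -Asn and +Asn, this contrast gave log2 differences of -0.046 ± 0.044 (SE, n = 3 per group), adjusted p = 0.866 for KDM6B and 0.061 ± 0.056 (SE, n = 3 per group), adjusted p = 0.856 for BID.

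RNA at broad promoters did differ between -Asn+Fe and -Asn. Of 1090 genes tested, 181 were higher and 218 lower (edgeR), 36.6% in all, beside 30.8% of all genes (14.0% higher and 16.8% lower) and 35.6% of genes at other promoter regions (1363 higher and 2366 lower of 10479). The split was 232 higher and 177 lower with library totals alone and 233 and 168 with a stricter low-count filter. At least 2-fold changes were few, 5 higher and 18 lower, beside 3.33% and 1.95% of all genes. Of 264 lncRNA genes, 24 rose and 32 fell (9.09% and 12.1%), beside 11.8% and 5.86% of all lncRNA genes tested and 7.53% and 7.67% of those at other promoter regions. E2F8, RRM2, CDT1, TUBA1B, MND1 and C21orf58 fell most, and MDM2, HSPH1, DNAJB4, JUNB, HSPA8 and CCSAP rose most among the genes the naming rule allows.

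E2F8, a repressive E2F gene, had 155, 172 and 170.1 CPM in +Asn, 88.2, 92.5 and 94.8 CPM in -Asn and 18.3, 18.1 and 16.3 CPM in -Asn+Fe, a log2 fold change of -2.39 ± 0.076 (SE, n = 3 per group), adjusted p = 5.64e-12 from -Asn to -Asn+Fe. RRM2, a subunit gene of ribonucleotide reductase, an enzyme that contains iron, had 612, 611 and 608 CPM in +Asn, 201, 214 and 220.1 CPM in -Asn and 57.1, 60.5 and 53.9 CPM in -Asn+Fe, with -1.89 ± 0.071 (SE, n = 3 per group), adjusted p = 3.55e-11. In both the 3 media were separate and -Asn+Fe was lowest. CDT1, which licenses replication origins, fell from 44.6 ± 3.87 CPM to 16.6 ± 1.89 CPM (log2 fold change -1.43, adjusted p = 1.08e-08). TUBA1B, an alpha tubulin gene, went from 972 ± 111 CPM to 365 ± 22.4 CPM (-1.42, adjusted p = 4.59e-09), MND1, a recombination gene, from 34.2 ± 4.89 CPM to 13.4 ± 1.45 CPM (-1.35, adjusted p = 9.63e-08) and C21orf58, at the PCNT region, from 13.5 ± 1.01 CPM to 4.92 ± 0.712 CPM (-1.47, adjusted p = 5.01e-08). All 5 tested S phase genes fell again, as did KIF11 (-1.04, adjusted p = 3.61e-08). In the whole lists 39 of 39 S phase genes and 30 of 30 G2 and mitosis genes fell.

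MDM2 had 361, 385 and 381 CPM in +Asn, 259, 334 and 343 CPM in -Asn and 732, 662 and 715 CPM in -Asn+Fe. Its -Asn+Fe libraries lay above the other 6, with a log2 fold change of 1.17 ± 0.094 (SE, n = 3 per group), adjusted p = 1.03e-07 from -Asn. HSPH1 rose by 1.16 (adjusted p = 4.24e-09) and HSPA8, the constitutive HSP70, by 0.93 (adjusted p = 2.19e-07), without reaching +Asn. HSPA8 stood at 1541 ± 54.9 CPM in +Asn, 446 ± 44.6 CPM in -Asn and 852 ± 26.1 CPM in -Asn+Fe. DNAJB4, a J-domain chaperone gene at the FUBP1 region, rose by 0.97 (adjusted p = 1.58e-06), JUNB, an AP-1 gene, by 0.95 (adjusted p = 1.92e-06) and CCSAP by 0.85 (adjusted p = 6.47e-06). SESN1 (0.62, adjusted p = 3.72e-05), PMAIP1 (0.48, adjusted p = 3.56e-05), PPM1D (0.40, adjusted p = 0.000585) and GADD45B (0.41, adjusted p = 0.00943), a stress-response gene, also rose on the log2 scale. BBC3 had 0.16 (adjusted p = 0.255).

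Surface and receptor genes of precursor B cells had 8 of 9 lower and 0 higher, the exception being FLT3 (0.051, adjusted p = 0.613). In the whole list 17 of 27 were lower and 2 higher. CD24 fell by 0.80 (adjusted p = 3.04e-07), CXCR4 by 0.67 (adjusted p = 1.2e-05) and IGLL1 by 0.45 (adjusted p = 0.00315), and the PTPRC call (-0.20, adjusted p = 0.0434) was lost under 13 alternatives. Of fusion targets, 5 of 16 rose and 2 fell, MEIS1 with -0.25 (adjusted p = 0.0082) and PBX3 with -0.23 (adjusted p = 0.0178). In the whole list 7 of 26 rose and 3 fell. The CDK6 call, 0.40 (adjusted p = 0.0477), was lost under 8 alternatives. Among them were leaving out -Asn+Fe replicate 1 or 3, or any 1 of the +Asn libraries. B-lineage factors had 0 higher and 3 lower of 18, beside 4 higher and 7 lower of 32 in the whole list. Across 736 members the width and RNA differences of this contrast had r = 0.17 and rho = 0.17 (no p is given).

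Against +Asn, which both starved media share as control, -Asn+Fe had 324 genes at broad promoters higher and 458 lower of 1090 (edgeR), beside 32.9% and 31.9% of all genes (64.7% in all). At least 2-fold, 110 were higher and 154 lower, beside 17.3% and 10.5% of all genes. With library totals alone the split was 459 and 332. Under the naming rule the largest falls were in CCNE2 (-4.57 on the log2 scale), MCM4 (-3.79), RRM2 (-3.42), E2F8 (-3.24), TUBA1B (-2.94) and DTL (-2.93), a factor that marks CDT1 for degradation. Among the largest rises were those of HIST1H2AC (3.38), KDM6B (3.13), ZBTB7B (3.06), NR4A3 (3.03) and FOSL2 (2.84). Their adjusted p ranged from 3.34e-16 to 1.85e-07, and the 3 libraries per medium did not overlap in any of them. As a description, every -Asn+Fe library was wider than +Asn at 190 regions and narrower at 120, beside 30.1% and 7.22% of all regions. The median width difference was 0.014 on the log2 scale.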

How the data were processed

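H3K4me3 peak positions, as the authors deposited them, came from a workflow for which the submitters' processing notes name MACS2 2.2.7.1, Bowtie2 2.4.4, Picard 2.18.26 and hg38. They give positions per library, merged into regions, with no counts, heights or p-values. Neither the peak threshold, the role of inputs nor the depth is given in the sources used here. Lines had 13 fields under 12 names, so library columns were read as the last 9, and those called untreated as +Asn. The RNA values the authors deposited are raw counts per gene, and the submitters' processing notes name featureCounts (Subread 1.6.5), STAR 2.7.2a and hg38 for them.

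All genes were fitted with edgeR 4.0.16 (TMM, filterByExpr, robust quasi-likelihood, 9 libraries) and log2 widths of all 13883 regions with limma 3.58.1 (trend), with Benjamini-Hochberg adjustment over the whole table and calls at 0.05, and both were tested on simulated data. Python 3.11.15 and R 4.3.3 were used, and RefSeq windows were matched by gene ID or symbol. Members, gene lists and tests were chosen with earlier results of these data known. Named are the 12 broadest regions, 3 on each side of the threshold, the largest width differences (5 per direction for -Asn against +Asn, 3 for -Asn+Fe against -Asn), up to 6 called genes per RNA contrast and direction (mean over all libraries 5 CPM or higher, groups not overlapping), and up to 4 genes per list by mean CPM. Some genes that these rules pick, and 1 list, are not reported here. List members beyond these were named after their values were seen. Alternatives were DESeq2 1.42.0, other scalings and filters, other width measures, thresholds and distances, a replicate block, and each library left out in turn.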

Additional observations from a re-analysis of the deposited data

How the results depend on the processing

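Of 311 values of 18 summary results under the alternatives, 259 were graded as the same. That grade was wide for counts. In -Asn against +Asn it took in 410 higher and 363 lower genes with library totals alone, against 304 and 470 as reported. It also took in 378 lower genes with the stricter filter and 397 with the naming gene alone. Values graded otherwise follow. The cause was not tested except where the construction shows it. With library totals alone the median log2 fold change of genes at broad promoters was 0.067 in -Asn against +Asn and 0.15 in -Asn+Fe against +Asn, against -0.14 and -0.10 with TMM factors. At thresholds of 3000 and 4000 bp, higher genes numbered 485 and 189, 278 and 99, and 512 and 195, and lower genes 777 and 267, 355 and 129, and 770 and 272, in -Asn against +Asn, -Asn+Fe against -Asn and -Asn+Fe against +Asn. More or fewer regions enter at those thresholds. The medians were -0.099 at 4000 bp (first contrast) and -0.13 at 3000 bp (last). With the naming gene alone, 178 and 199 genes were higher in the contrasts with +Asn, and the medians were -0.27, 0.024 and -0.24. The near-zero median of -Asn+Fe against -Asn, 0.00086, was 0.014 with DESeq2 and 0.014 with RLE factors, 0.049 with library totals, 0.049 with the stricter filter, -0.015 without a filter and 0.019 with only the 6 libraries compared. In -Asn+Fe against +Asn the stricter filter gave -0.062.

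Leaving out each library gave medians of -0.16 to -0.14, -0.00018 to 0.033 and -0.12 to -0.088 in the 3 contrasts. The counts ran from 265 to 322 higher and 445 to 484 lower, 127 to 212 and 157 to 223, and 285 to 365 and 439 to 488. For widths, medians ran from 0.0020 to 0.046 in -Asn against +Asn, -0.029 to 0.024 in -Asn+Fe against -Asn and 0.0048 to 0.030 in -Asn+Fe against +Asn. The wider regions numbered 188 to 301 and the narrower 91 to 167, counts that rise in part because fewer libraries separate more easily. At 3000 and 4000 bp the wider numbered 299 and 104 and the narrower 136 and 55. After centring, the medians against +Asn were -0.068 in -Asn (56 wider, 310 narrower) and -0.053 in -Asn+Fe. Among the regions named in the text 3 were graded as reversed. They were HOXA9, at -0.081 (-Asn) and -0.059 (-Asn+Fe), and in -Asn+Fe BCL11A at -0.0090 and ARPP21 at -0.0073. Centring moves every difference of a contrast by the same amount, so other small positive differences also turned negative. With the longest single peak AC068135.2 was 0.20 and HIST1H2AG -0.35, and with the outer span E2F2 was 0.018. The median RPKM in +Asn, 9.30, was 8.79 at 3000 bp, 8.36 at 4000 bp, 8.77 with 2 kb, 21.1 for naming genes and 9.25 to 9.42 without 1 library. The median covered length downstream was 2629 and 3547 bp at 3000 and 4000 bp, and 3095 to 3144 bp without 1 library.

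Same-numbered libraries did not deviate together (r from -0.15 to 0.13 in RNA and -0.21 to 0.093 in widths), so the numbers were not taken to pair samples. With the replicate block, 292 genes were higher and 465 lower, 167 and 200, and 324 and 452, in the same order, and 0 regions were called in width. Peak depth is unknown, so widths cannot be corrected for it.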
